A study of Mus musculus with 12 samples.

Results

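The peaks described here were far intergenic sites of open chromatin in mouse bone marrow derived macrophages, mapped by ATAC-seq. In this assay the Tn5 transposase cuts accessible DNA, so the number of reads in a peak measures how accessible that site was. They were chosen from the deposited annotation alone, as all peaks annotated as distal intergenic that lay more than 50 kb from the nearest transcription start, whatever their reads. The rule found 12590 of the 139999 peaks, or 8.99%. Of these peaks, 12479 were listed above 0 in every group, so that reads of all 12 libraries could be recovered and tested between phases. The other 111 were listed at 0 in at least 1 group. Up to 1.26% of the 12479 held 0 reads in a given library.

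The study asked what a diabetic history leaves in macrophages. Marrow came from male C57BL/6J mice aged 8 weeks, allocated to a diabetic or a control group. Diabetes was induced with streptozotocin, a toxin of pancreatic beta cells, given at 42 to 45 mg/kg daily for 5 days after a 12 h fast; mice above 16.9 mmol/L of non-fasted blood glucose counted as type 1 diabetic and stayed hyperglycaemic for 6 weeks. The libraries were 2 diabetic and 2 healthy in the first phase, 2 diabetic-trained and 2 untrained in the rest phase (7 days of culture with M-CSF in 5 mmol/L glucose, diabetic and control cells alike), and 2 diabetic-trained and 2 untrained in the second phase (16 h of stimulation with LPS at 100 ng/mL and IFN-γ at 10 ng/mL). The labels do not say at which point first-phase cells were collected, what control mice received, or whether the 2 libraries of a group came from separate animals, so p-values measure only the spread between these libraries, which may be technical.

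Distal intergenic sites of open chromatin are often enhancers, stretches that bind transcription factors and raise the activity of a gene some distance away. In macrophages such sites are typically bound by the lineage factor PU.1 of the ETS family together with C/EBP and AP-1 factors, and the set that is open differs far more between cell types than the set of open promoters. The gene whose start is nearest is a position marker, and not necessarily the gene such a site acts on.

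No genome was used here, so the sequence of most of these peaks is not shown. RefSeq (GRCm38.p6, the same build as mm10) gives a window of 250 bases before to 50 bases after the start of each annotated transcript, and 35 such windows of 32 genes lay wholly inside a far intergenic peak; 30 of these genes were lncRNAs and 2 were protein-coding. Both strands were searched. Of the 35 windows, 22.9% held an AP-1 motif (TGANTCA), against 7.81% of all 32851 windows. The ETS motif GAGGAAGT stood in 17.1% of the 35 windows and 3.20% of all, and the C/EBP motif TTGCNNAA in 17.1% and 10.8%. Shares were 22.9% and 20.7% for the NF-kB motif, 11.4% and 5.27% for RUNX (TGTGGTT), 5.71% and 3.04% for the GATA factor motif AGATAAG, 2.86% and 3.44% for the interferon response motif, and 0% and 1.0% for the CTCF core. A match is a description of the letters, not a bound site. The 5 windows below are examples and do not stand for all 35. Of their peaks, 3 were called higher in the rest phase than in the first and 1 lower, and 1 rich in CpG passed in neither direction. Each is written 5′ to 3′ on the strand of its lncRNA, and capitals mark motif matches of the list above.
Gm40491, chr12:86833714-86834013, minus strand: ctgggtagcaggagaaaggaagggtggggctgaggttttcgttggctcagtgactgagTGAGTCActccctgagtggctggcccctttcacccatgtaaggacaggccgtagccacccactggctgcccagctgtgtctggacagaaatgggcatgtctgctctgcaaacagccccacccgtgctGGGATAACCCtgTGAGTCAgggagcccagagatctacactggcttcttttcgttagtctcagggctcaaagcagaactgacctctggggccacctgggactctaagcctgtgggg
Gm6634, chr3:70807242-70807541, minus strand: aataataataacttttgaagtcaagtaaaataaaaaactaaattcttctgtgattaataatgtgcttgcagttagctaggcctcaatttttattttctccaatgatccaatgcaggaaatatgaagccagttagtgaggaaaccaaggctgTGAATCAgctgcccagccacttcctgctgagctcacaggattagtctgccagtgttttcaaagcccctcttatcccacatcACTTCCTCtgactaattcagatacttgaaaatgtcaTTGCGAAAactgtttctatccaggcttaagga
Gm40924, chr13:39923162-39923461, minus strand: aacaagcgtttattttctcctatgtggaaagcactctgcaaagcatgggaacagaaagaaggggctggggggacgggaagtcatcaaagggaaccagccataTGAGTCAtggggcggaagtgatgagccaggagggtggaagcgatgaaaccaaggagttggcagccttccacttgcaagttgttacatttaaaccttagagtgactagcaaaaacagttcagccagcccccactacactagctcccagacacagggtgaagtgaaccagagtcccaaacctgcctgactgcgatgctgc
Gm34948, chr2:103896217-103896516, minus strand: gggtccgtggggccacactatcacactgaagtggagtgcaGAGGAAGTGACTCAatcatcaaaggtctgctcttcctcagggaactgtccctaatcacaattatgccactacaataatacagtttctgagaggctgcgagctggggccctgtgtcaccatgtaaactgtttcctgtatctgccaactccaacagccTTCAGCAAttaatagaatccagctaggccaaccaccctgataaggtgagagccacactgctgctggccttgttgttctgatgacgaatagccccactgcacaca
Gm34507, chr17:4908072-4908371, plus strand: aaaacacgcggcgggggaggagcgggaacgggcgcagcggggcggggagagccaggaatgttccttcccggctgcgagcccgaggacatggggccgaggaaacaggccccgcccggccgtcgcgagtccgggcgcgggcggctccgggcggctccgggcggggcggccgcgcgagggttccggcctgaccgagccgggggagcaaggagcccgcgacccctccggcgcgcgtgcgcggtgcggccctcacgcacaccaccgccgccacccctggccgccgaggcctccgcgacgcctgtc

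Gm40491 lay inside the most accessible of all far intergenic peaks, whose nearest start in the deposited table is that of Irf2bpl; it holds 2 AP-1 matches and 1 NF-kB match. The Gm6634 window, whose peak lay 799539 bases from the start of Otol1 in the deposited table, holds an AP-1, an ETS and a C/EBP match with a single CpG. Its peak had log2 levels of 4.07, 4.34, 4.20 and 4.89 in first-phase libraries, 7.00, 6.88, 6.48 and 6.34 in rest-phase libraries and 7.03, 6.53, 7.04 and 6.68 in second-phase libraries. A log2 level here is log2(reads + 1) after quantile scaling over the 12 libraries, and 4 values of a phase are given in the order A1, A2, B1, B2, where A and B are the 2 groups of that phase and 1 and 2 their libraries. All 8 later libraries stood above all first-phase libraries, and the rest against first log2 fold was 2.22 (SE 0.30, limma adjusted p = 5e-05). Gm40924 has 1 AP-1 match and its peak rose by 1.36 (SE 0.29, limma adjusted p = 0.00191). Gm34948 lies by Lmo2, a transcriptional co-factor of blood stem cells, and its AP-1 match overlaps its ETS match; the peak fell by 1.21 in the rest phase (SE 0.33, limma adjusted p = 0.0094), a call that was lost when libraries were scaled to total reads in peaks (-0.64, adjusted p = 0.13). Gm34507, with 79.3% G and C and 49 CpG, did not pass (log2 fold -0.01, limma adjusted p = 0.969). Windows not printed went other ways. The peak of Gm9222, with 23 CpG and no match, had a log2 fold of 1.05 (limma adjusted p = 0.000298). That of Gm32438, also without a match, had -1.16 (limma adjusted p = 0.00281). Gm36102 has an AP-1 match, and its peak did not pass (limma adjusted p = 0.606). Whether any motif goes with a change was not tested.

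The deposited headers do not tie a group's column to diabetic or control cells, so A stands for the first mean column of each phase and B for the second, and A of one phase need not be A of another. Reads in peaks ran from 3832347 to 18617444 per library, and the median far intergenic peak held 6 to 38 reads, against 9 to 56 over all peaks. Both first-phase A libraries differed by little more than counting noise over far intergenic peaks (variance ratio 1.15, where 1 would be noise alone) and were counted as 1 library, which left n = 3 in the first phase. In the second phase, A1 was close to rest-phase A1 (variance ratio 2.10) and far from its own mate A2 (16.0), and B1 and B2 also stood apart (7.08). A2 and B2, of opposite groups, were close to each other (2.22), and B1 was nearer to rest-phase B1 (3.77) than to B2. The second-phase libraries thus divided across the groups, and second-phase results rest on groups with wide spread. Whether a second-phase library was exchanged with another or was not stimulated was not tested, and the labels could not be checked against the reads. Promoter peaks were found for all 8 macrophage marker genes, and their summed level was 10.5 to 11.3 in the first phase, 11.3 to 11.6 in the rest phase and 11.5 in all second-phase libraries.

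These far intergenic peaks sat a median 97.7 kb from the nearest start, with quartiles of 67.6 and 164 kb. Of all members, 6382 lay upstream and 6208 downstream of it. Between 50 and 100 kb lay 6458 peaks (51.3%), between 100 and 200 kb 3894 (30.9%), between 200 and 500 kb 1836 (14.6%), and beyond 500 kb 402 (3.19%). The farthest lay 2009.6 kb from Gm32455 on chromosome 14. At the limit, the peaks just inside were nearest Lipg and Vcpkmt and those just outside nearest Zc3h12a and 1700094M24Rik, all at about 50 kb. Their log2 levels over the libraries ran from 4.30 to 7.32 in the first 2 and from 2.70 to 5.60 in the others. Far intergenic peaks made up 4.90% of peaks on chromosome 7, the lowest share of any autosome, and 15.2% on chromosome 13, the highest.

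The deposited annotation uses fewer starts than RefSeq. Among the 12013 members on chromosomes covered by the RefSeq tables, 6951 (57.9%) were also beyond 50 kb of every RefSeq start, 4821 had a RefSeq start within 1 to 50 kb, 241 had one within 1 kb, and 1826 lay inside a RefSeq gene, mostly of a lncRNA (1541). "Far intergenic" therefore means far from the starts in the deposited annotation.

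Like every class except promoters within 1 kb, far intergenic peaks held a larger share of reads in the rest phase than in the first. They held 5.97%, 5.96%, 5.30% and 5.03% of the reads in peaks in the rest phase, against 3.26%, 3.13%, 3.28% and 4.01% in the first, and every rest-phase library lay above every first-phase one. The means were 5.57% ± 0.478 (SD, n = 4) in the rest phase and 3.49% ± 0.446 (SD, n = 3) in the first. In the second phase the shares were 6.09%, 5.73%, 7.10% and 6.26%, with a mean of 6.29% ± 0.581 (SD, n = 4), and the range overlapped that of the rest phase. Peaks within 1 kb of a start moved the other way in the same libraries: they held 57.8%, 59.1%, 58.9% and 48.8% of the reads in first-phase libraries, 33.4%, 35.0%, 40.8% and 41.9% in rest-phase libraries and 32.7%, 37.7%, 27.1% and 35.0% in second-phase libraries. The rise was not particular to far intergenic peaks. Intergenic peaks within 50 kb held 11.61%, 11.38%, 11.38% and 13.94% in first-phase libraries and 17.28%, 17.10%, 15.81% and 15.54% in rest-phase ones. First-intron peaks held 6.41%, 6.20%, 6.04% and 7.82%, then 10.68%, 10.19%, 8.98% and 8.90%. A lower share in promoters gives a higher share elsewhere, and how much of the rise in far intergenic peaks it accounts for was not tested.

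**Figure D1:**
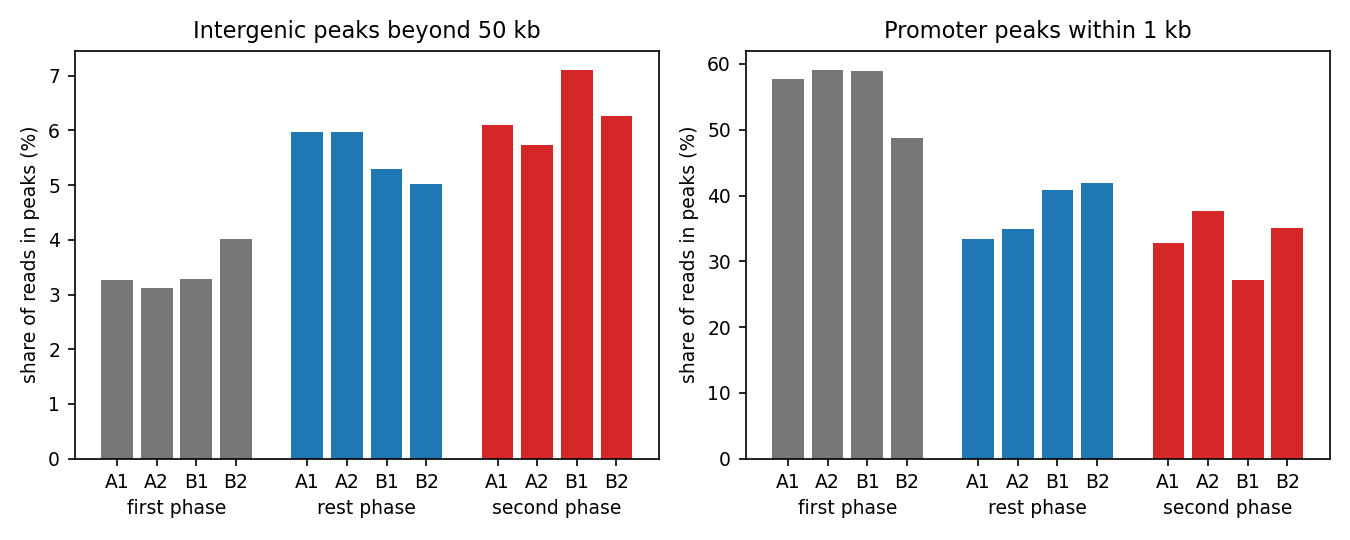
Share of the reads in peaks (percent, vertical axis) that fell in far intergenic peaks (left) and in promoter peaks within 1 kb (right), with 1 bar per library, by phase. On the left the first-phase bars lie between 3.13% and 4.01%, the rest-phase bars between 5.03% and 5.97% and the second-phase bars between 5.73% and 7.10%, while on the right the first-phase bars are the tallest.

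Which of these sites opened and which closed between the first phase and the rest phase was tested with limma on the recovered reads. Diabetic and control libraries were pooled within each phase, with no term for group. Because the first-phase A pair was counted as 1 library, the groups did not weigh equally in that phase. The p-values were adjusted over all 139557 peaks with recovered reads. At an adjusted p under 0.05, 3076 far intergenic peaks (24.6%) were higher in the rest phase, against 19.9% of all peaks, and 1580 (12.7%) were lower, against 18.9% of all peaks. The other 7823 did not pass. Their median log2 fold was 0.29, beside 0.02 over all peaks. Peaks within 1 kb of a start leaned the other way, with 12.4% higher, 32.2% lower and a median of -0.32. Intergenic peaks nearer than 50 kb lay between, with 19.9% higher, 17.0% lower and a median of 0.06. Intron peaks leaned the same way as far intergenic ones. In later introns 21.9% were higher and 14.9% lower, with a median of 0.14. In first introns 22.6% were higher and 17.0% lower, with a median of 0.13.

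The changes were often large. Of the peaks that rose, 2851 did so by at least 2-fold and 921 by at least 4-fold. Of those that fell, 1463 did so by at least 2-fold and 730 by at least 4-fold. How many of all called peaks reached these folds was not counted, so these counts do not set far intergenic peaks apart from others. Rest-phase and first-phase libraries did not overlap in 2519 of the peaks that rose and 1316 of those that fell. Counted over all tested peaks whether called or not, 4235 far intergenic peaks (33.9%) had no overlap, beside 37.7% of all peaks. Scaling bears on the balance: when libraries were scaled to total reads in peaks, 3805 were higher and 1069 lower, so that 78.1% of the calls were higher in place of 66.1%, and with TMM scaling 2662 were higher and 1574 lower (62.8%). Those scalings moved the median of all peaks to 0.29 and -0.08, and the far intergenic median stood 0.21 and 0.22 above it, compared with 0.27 in the quantile scaling used here. With total-read scaling 30.5% of far intergenic peaks and 30.5% of first-intron peaks were higher, and 8.57% and 10.5% were lower. With TMM 21.3% and 20.6% were higher, and 12.6% and 16.7% lower.

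**Figure D2:**
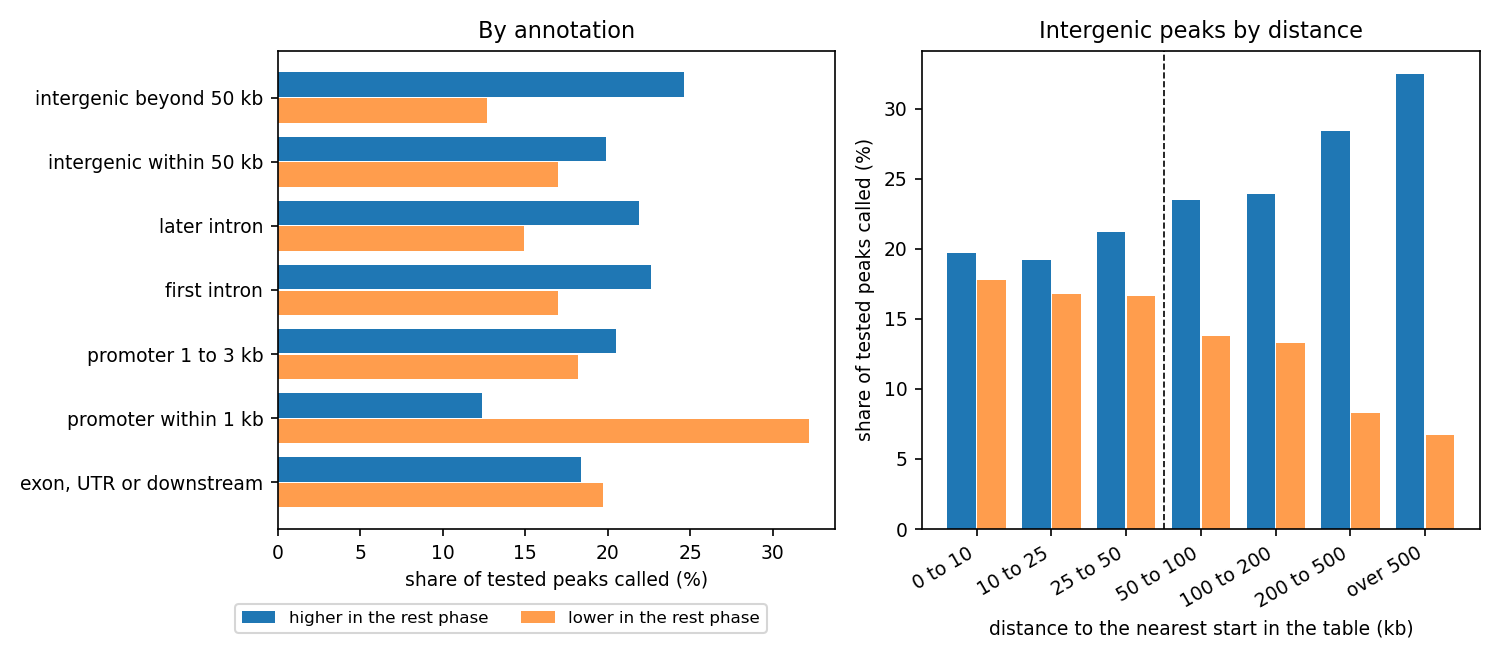
Percent of tested peaks called higher and lower in the rest phase against the first (limma, adjusted p under 0.05), by annotation class (left) and, for intergenic peaks, by distance in kb (right, dashed line at 50 kb). Far intergenic peaks have 24.6% higher and 12.7% lower, while peaks within 1 kb of a start have 12.4% higher and 32.2% lower.

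The lean towards opening grew with distance. Of the peaks from 50 to 100 kb, 23.5% rose and 13.8% fell; from 100 to 200 kb, 23.9% and 13.3%; from 200 to 500 kb, 28.4% and 8.26%; and beyond 500 kb, 32.5% and 6.70%. Median log2 folds in these bins were 0.22, 0.27, 0.48 and 0.61. Between 25 and 50 kb 21.2% rose and 16.6% fell. Median levels went down with distance in the same bins, to 3.95 in the rest phase and 3.47 in the first phase beyond 500 kb, and the part of depth in this trend was not tested. Under TMM scaling the bins had 20.7%, 20.5%, 23.8% and 27.6% higher and 13.8%, 13.3%, 8.09% and 6.96% lower, and under total-read scaling 30.3%, 29.4%, 32.8% and 35.1% higher and 9.01%, 9.58%, 5.60% and 4.90% lower.

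Singled out after its values were seen, chromosome X had 124 of 322 tested members higher (38.5%) and 13 lower (4.04%), compared with 24.3% and 12.9% of autosomal members; over all peaks of chromosome X, 27.5% rose and 11.2% fell.

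The largest rises reported here were of 4.13 to 4.86 on the log2 scale. Leading rises and falls were picked only among peaks whose rest-phase and first-phase libraries did not overlap. A peak on chromosome 2 (start 51387158) lay 50.3 kb from 1700057H21Rik. Its log2 levels were 3.82, 2.25, 2.92 and 1.58 in first-phase libraries, 6.88, 6.76, 7.99 and 7.88 in rest-phase libraries and 7.13, 5.92, 7.12 and 6.66 in second-phase libraries. Every later library was above every first-phase library, and the rest against first log2 fold was 4.86 (SE 0.42, limma adjusted p = 1.94e-06). In recovered reads this was 269, 212, 139 and 234 in the rest phase, against 5, 1, 6 and 2 in the first.

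A peak 121.1 kb from Mir6395 rose by 4.65. A peak 82.0 kb from Cacul1 had 3.55, 4.09, 2.70 and 3.58 in first-phase libraries, 7.77, 7.90, 7.61 and 7.86 in rest-phase libraries and 7.63, 7.11, 7.40 and 7.20 in second-phase libraries, a rest against first fold of 4.44 (SE 0.30, limma adjusted p = 4.03e-07). The peak 172.2 kb from Qki, which encodes an RNA-binding protein that controls splicing, had 4.30, 4.54, 5.48 and 4.89 in first-phase libraries, 9.72, 9.87, 8.46 and 8.76 in rest-phase libraries and 9.70, 8.72, 9.73 and 9.04 in second-phase libraries. In both peaks the later phases did not overlap the first. A peak 308.3 kb from Hs6st1, a sulfotransferase that modifies heparan sulfate, rose by 4.25 (SE 0.24, limma adjusted p = 1.42e-07). One 371.8 kb from Psat1, an enzyme of serine synthesis, rose by 4.15, and one 200.9 kb from the ubiquitin ligase gene Ube3a by 4.13. Peaks near Pdzrn3 (177.3 kb, 4.30) and Gm29686 (64.3 kb, 4.18) rose likewise.

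Among the peaks that closed, one lay 69.6 kb from Oxsm, which encodes a mitochondrial enzyme of fatty acid synthesis (chromosome 14, start 16173265). Its log2 levels were 8.14, 8.00, 8.27 and 6.77 in first-phase libraries, 1.12, 2.70, 2.54 and 2.14 in rest-phase libraries and 1.12, 2.27, 2.32 and 3.26 in second-phase libraries, and the rest against first log2 fold was -5.60 (SE 0.46, limma adjusted p = 1.25e-06). It held 1, 7, 6 and 4 reads in the rest phase, against 137, 126, 342 and 53 in the first, so that the size of the fall rests on few reads and on the pseudocount of 1. The first phase stood above both later phases.

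A peak 63.8 kb from Lmo2 (chromosome 2, start 103893768), close to the Gm34948 window printed above, had 7.43, 7.48, 8.06 and 6.81 in first-phase libraries, 1.94, 1.94, 3.12 and 3.90 in rest-phase libraries and 2.20, 3.22, 3.63 and 3.96 in second-phase libraries, a fold of -4.72 (SE 0.49, limma adjusted p = 6.36e-06). A peak 113.0 kb from Nfatc2, a calcium-regulated transcription factor of lymphocytes, had 7.57, 7.84, 8.54 and 5.39 in the first phase and fell by 4.71 in the rest phase, with B2 of the first phase well below its mates. That library was the lowest of its phase in all 9 leading falls reported here, and it also stood apart in its promoter share. Falls of -4.63 to -4.46 were measured near Gm15326, Mib1, Cimip1, Tshz2, Tmem121 and Gm30173. All 18 leading peaks reported here kept their call and direction under total-read and TMM scaling and when any library was left out. They were picked for large folds without overlap between the 2 phases, so this says little about other peaks.

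**Figure D3:**
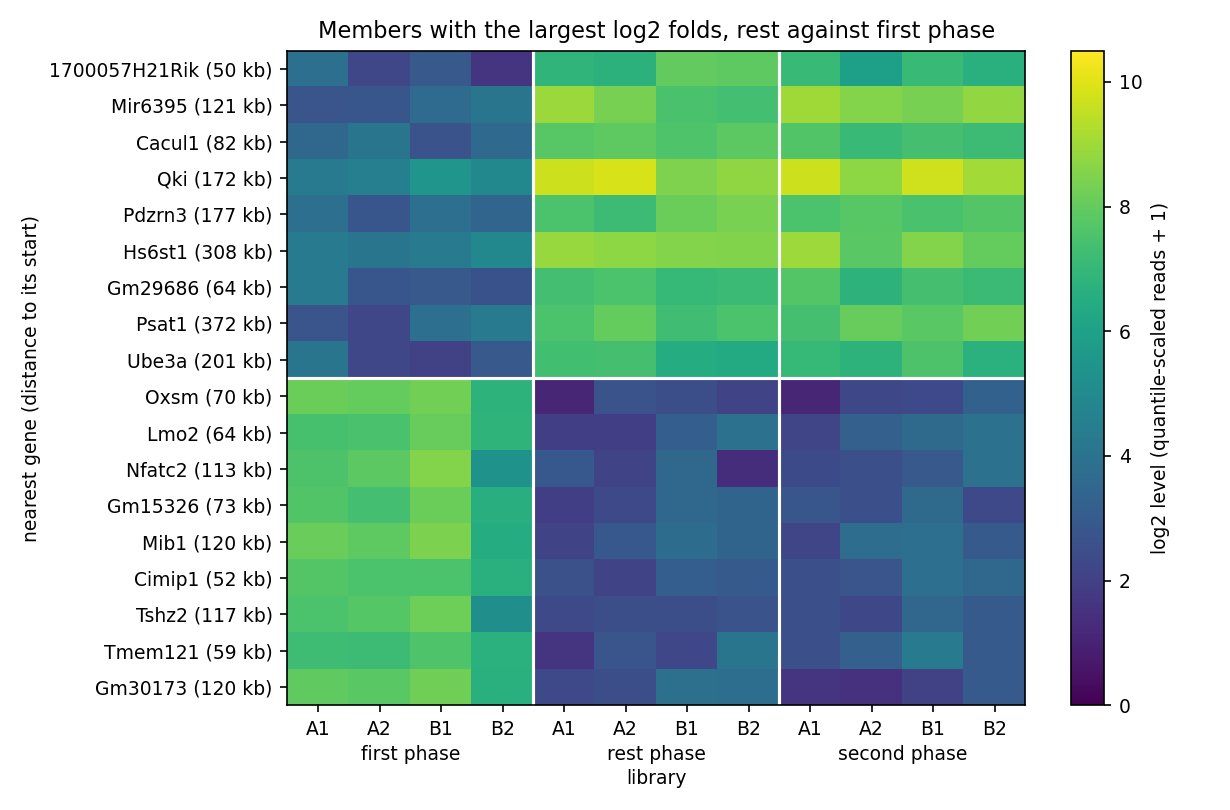
Log2 level per library (colour) of 9 far intergenic peaks among the 10 with the largest rise and 9 among the 10 with the largest fall in the rest phase against the first. In each of the peaks the rest-phase and second-phase libraries stand on the same side of the first-phase libraries. For the rest phase this follows from the rule that chose the peaks, which asked for no overlap with the first phase.

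Promoters of other blood cells moved in the same comparison. The summed level of the 4 B cell marker genes with a promoter peak was 6.71 to 7.36 in the rest phase, against 8.12 to 9.87 in the first, and 3 of the 4 fell; none was at 0. That of 5 neutrophil marker genes was 7.60 to 7.92 in the rest phase, against 9.76 to 10.8 in the first, and 3 of the 5 fell, none at 0. Of the 8 macrophage marker promoters 4 rose and 1 fell. In bulk libraries a smaller number of cells of a type and a less open site in each cell cannot be told apart, and the part of these marker changes in the far intergenic calls was not tested.

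The second-phase libraries took no part in choosing the peaks that rose or fell, and their median levels were near those of the rest phase, to one library of which second-phase A1 was close. In the 3076 peaks that rose, the median log2 level per library was 3.82, 3.85, 3.83 and 3.92 in first-phase libraries, 5.81, 5.79, 5.59 and 5.70 in rest-phase libraries and 5.85, 5.60, 5.78 and 5.70 in second-phase libraries. In the 1580 that fell it was 5.89, 5.88, 5.94 and 5.56 in first-phase libraries, 3.36, 3.50, 3.87 and 3.65 in rest-phase libraries and 3.49, 3.75, 3.82 and 3.82 in second-phase libraries. The first-phase and rest-phase values chose these peaks and are a description only. The 7823 peaks not passing had medians between 4.07 and 4.33 in all 12 libraries.

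**Figure D4:**
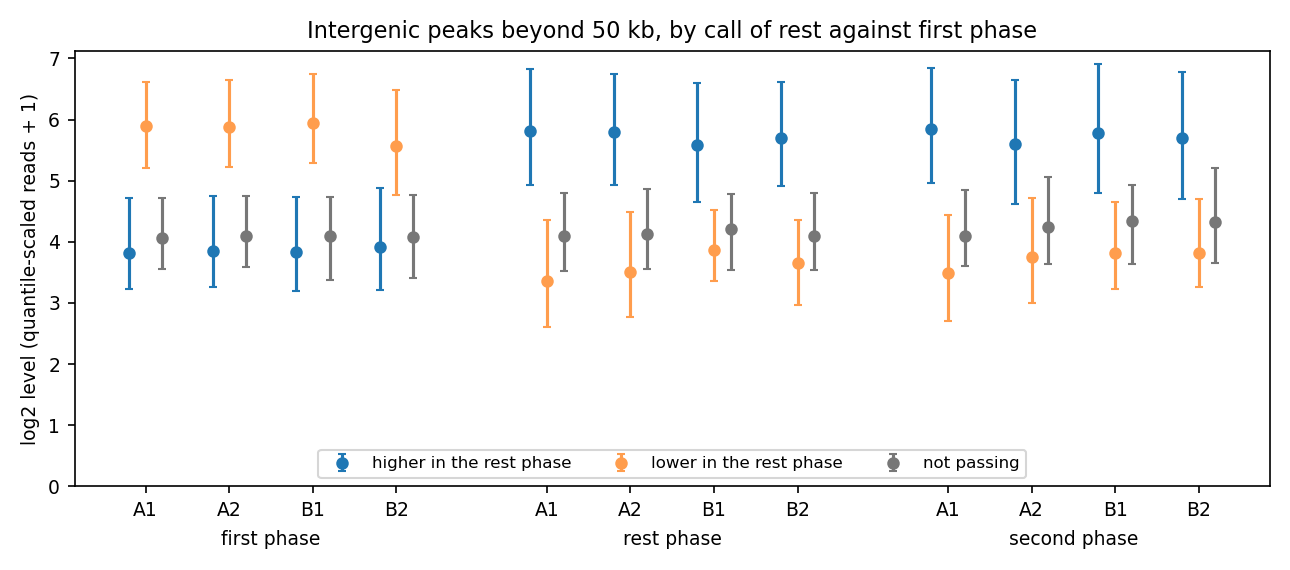
Log2 level per library of the far intergenic peaks called higher, called lower and not passing in the rest phase against the first; points are medians and bars run between the lower and upper quartile. The second-phase medians, 5.60 to 5.85 in the higher set and 3.49 to 3.82 in the lower set, stand close to those of the rest phase.

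The second phase, labelled as stimulated with IFN-γ and LPS, gave no call in far intergenic peaks. A1 was close to a rest-phase library, and A2 and B2 were closer to each other than to their mates. The absence of calls therefore cannot be read as absence of a response. Against the rest phase, limma called 0 of 12479 in either direction, with 0.0% of all peaks higher and 0.0% lower. In that fit 1530 of the 12479 far intergenic peaks had an unadjusted p under 0.05, beside 15966 of all 139557 peaks. The smallest adjusted p was 0.422, and limma was the single tool run. The median log2 fold was 0.01, beside -0.08 over all peaks, and second-phase and rest-phase libraries did not overlap in 636 peaks (5.10%), beside 5.91% of all peaks. The second-phase groups had wide spread, and its part in the absence of calls was not tested. A peak 63.9 kb from Acsl1, which activates long-chain fatty acids, had 2.70, 6.14, 4.50 and 6.51 in the second phase, against 1.94, 1.50, 2.54 and 2.39 in the rest phase: all 4 libraries were higher, A2 and B2 by far the most, and the fold of 2.98 had an unadjusted p of 0.00146. A peak 237.7 kb from Klf6, an injury-induced zinc finger factor, behaved alike, with 5.73, 6.91, 5.87 and 7.19 in the second phase, against 5.47, 5.09, 3.87 and 3.90 in the rest phase. One 134.2 kb from Nfkbiz, an NF-kB co-regulator induced by LPS, had 5.67, 6.27, 5.51 and 6.16 in the second phase, against 5.10, 5.19, 4.20 and 4.86 in the rest phase, with no overlap. The Klf4 peak 118.6 kb upstream had 8.53, 8.17, 8.44 and 8.00 in the second phase, against 8.80, 8.87, 9.12 and 9.20 in the rest phase. None of these 4 passed the adjusted threshold.

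Levels across far intergenic peaks set the first phase apart from the others. Over the 12479 peaks, Pearson correlations of log2 level were 0.748 to 0.948 between rest-phase libraries, 0.741 to 0.812 between first-phase ones and 0.611 to 0.907 between second-phase ones. Between rest and first phase they were 0.315 to 0.495, and between second and first 0.206 to 0.450, while second and rest gave 0.594 to 0.964. Over the 23341 promoter peaks within 1 kb the rest and first phases had correlations of 0.750 to 0.836. Points share libraries and differ in depth, and the part of depth in these values was not tested.

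The nearest genes numbered 2664, and 1868 of them had at least 2 far intergenic peaks, 326 at least 10 and 27 at least 30. Adgrl2, an adhesion receptor gene, had 58 (57 tested), of which 14 rose and 10 fell. Maf, a transcription factor of tissue macrophages, also had 58, with 12 higher and 3 lower. Klf4, a factor of monocyte differentiation, had 55, with 24 higher and 1 lower, a median log2 fold of 0.85 and folds from -1.91 to 3.01. Over all tested far intergenic peaks 24.6% rose and 12.7% fell. The peaks of a gene share a neighbourhood and are not independent of each other. The strongest rise by Klf4 (chromosome 4, start 55735465) had levels of 3.82, 2.25, 3.20 and 2.92 in first-phase libraries, 6.68, 6.26, 5.43 and 5.99 in rest-phase libraries and 6.90, 5.66, 6.41 and 5.70 in second-phase libraries. The Klf4 counts were 28 and 1 with total-read scaling and 20 and 1 with TMM.

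Gene deserts that leaned one way were picked out after their values were seen. Bmper, an extracellular regulator of BMP signalling, had 15 of 31 peaks higher and 2 lower; Mir21c had 11 of 36 higher and Rap2b 11 of 32, with none lower for both. In the other direction, 4930459C07Rik had 4 of 31 higher and 12 lower, and Rplp1 had 2 of 30 higher and 10 lower, a lean that was gone under total-read scaling (4 and 4). Jun, the AP-1 subunit gene, had 18 far intergenic peaks, of which 9 fell and none rose in the quantile and TMM scalings (8 lower with TMM), while total-read scaling gave 2 higher and 7 lower. The largest of the Jun falls, 249.7 kb away, had 5.79, 6.36, 6.13 and 5.48 in first-phase libraries, 2.46, 2.77, 3.53 and 3.38 in rest-phase libraries and 2.70, 3.84, 2.95 and 3.65 in second-phase libraries, a fold of -2.84 (SE 0.38, limma adjusted p = 4.81e-05).

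Gene lists were read through their nearest far intergenic peaks. The list counts that follow stand beside 24.6% higher and 12.7% lower over all tested far intergenic peaks. Of 20 macrophage regulators, 9 had far intergenic peaks, 185 in all, and Klf4 and Maf together hold most of them. Of the 185, 49 (26.5%) rose and 15 (8.11%) fell. Their median log2 fold was 0.38, beside 0.29 over all far intergenic peaks. With TMM 23.8% rose and 9.73% fell, against 21.3% and 12.6% of all far intergenic peaks. Runx1, a master regulator of blood cell formation, had 31 peaks with 4 higher and 6 lower. Among 19 immediate early genes, 4 had 50 peaks, with 14 higher and 10 lower: Klf6 had 9 of 21 higher and 1 lower, Egr2 had 3 of 5 higher, and Jun supplied 9 of the falls. The Egr2 peak 51.7 kb away had 4.30, 4.92, 4.32 and 4.76 in first-phase libraries, 7.61, 7.54, 7.39 and 7.67 in rest-phase libraries and 7.70, 6.85, 7.23 and 6.72 in second-phase libraries, a fold of 2.97 (SE 0.24, limma adjusted p = 1.2e-06).

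Lipid genes split by gene. All 3 peaks of Lpl, the lipase that releases fatty acids from lipoproteins, rose, by 1.52 to 1.70, and did so under every scaling tried. All 4 peaks of Fabp5, a fatty acid carrier, fell, by -3.95 to -0.90, with 2 of them still called under total-read scaling. The leading Fabp5 peak, 69.5 kb away, had 7.66, 7.24, 7.04 and 7.57 in first-phase libraries, 2.95, 3.10, 3.87 and 3.53 in rest-phase libraries and 3.00, 3.64, 3.22 and 2.98 in second-phase libraries, with no overlap. Both Acsl1 peaks fell, but not with total-read scaling, where 0 passed, and only 1 passed with TMM. Over the lipid list, 5 of 20 genes had 25 peaks, 24 tested, 6 higher and 6 lower.

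The 25 inflammatory genes had 32 peaks at 6 of them, with 6 higher and 5 lower: Nfkbiz had 4 of 11 higher, Il12b, a subunit of the cytokine IL-12, had 1 higher and 2 lower of 11, and Il6 had 3 of 6 lower. The 15 alternative activation genes had 9 peaks at 3 of them, 3 higher and 0 lower. Osteoclast genes had 9 peaks, 1 higher and 0 lower, the higher one by Prdm1, a repressor in plasma cell and myeloid differentiation. No interferon response gene and no neutrophil gene on the lists had a far intergenic peak.

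Genes of other lineages had peaks in both directions. Of the stem and progenitor list, 8 of 16 genes had 50 peaks, 12 higher and 16 lower; Kit, the stem cell factor receptor, had 6 of 20 higher and 4 lower, and Lmo2 had 2 of 6 higher and 3 lower. The T and NK cell list had 19 peaks, 6 higher and 6 lower, with 5 of the falls at Lef1, a Wnt-responsive factor of lymphoid progenitors. Its leading peak, 90.6 kb away, had 7.17, 7.31, 7.28 and 5.83 in first-phase libraries, 3.75, 4.24, 4.20 and 3.90 in rest-phase libraries and 3.49, 2.58, 2.32 and 3.26 in second-phase libraries. The B cell list had 15 peaks, 3 higher and 5 lower, and both counts came from Bach2, a repressor that shapes B cell responses. Dendritic and mast cell genes had 11 peaks, 2 higher and 0 lower (1 and 1 with TMM), and stromal genes had 18, with 3 higher and 2 lower. Marker promoters gave these values in the same libraries. Of the 5 stem and progenitor marker promoters 1 rose and 2 fell, with a summed level of 8.17 to 8.77 in the rest phase, against 8.64 to 9.03 in the first. Of 5 T and NK cell markers 1 had a promoter peak, which did not pass. Of 2 stromal marker promoters 1 fell, with a summed level of 6.41 to 7.21 in the rest phase, against 7.19 to 7.66 in the first. No dendritic or mast cell markers were measured, and the part of any marker change in these counts was not tested.

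Far intergenic peaks were clustered. Joined where the gap was under 10 kb, they formed 6112 runs, of which 3462 were single peaks and 481 held at least 5; the largest held 23, 21 and 19. Some runs held calls in a single direction and others in both. Among 915 runs with at least 2 calls, 431 had all calls higher, 173 all lower and 311 both, and 189 of the 481 runs of at least 5 peaks held calls in both directions. Of all far intergenic calls 66.1% were higher, and the share of mixed runs among unrelated peaks was not computed. Whether neighbours moved together more or less often than unrelated peaks was therefore not tested.

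The run of 23 peaks lay between Irf2, a transcription factor of the interferon pathway, and Enpp6, on chromosome 8 (46859258 to 46935266), with 12 peaks nearest Irf2 and 11 nearest Enpp6. In it 5 peaks rose and 2 fell. The strongest rise, 85.7 kb from Irf2, had 6.06, 5.60, 5.87 and 6.44 in first-phase libraries, 8.77, 8.47, 7.95 and 7.69 in rest-phase libraries and 8.68, 7.82, 8.78 and 8.11 in second-phase libraries. The strongest fall, 66.5 kb from Enpp6 had 7.00, 6.90, 7.10 and 6.20 in first-phase libraries, 2.60, 2.89, 3.70 and 4.20 in rest-phase libraries and 3.21, 3.38, 3.63 and 3.26 in second-phase libraries. In both peaks the first phase stood apart from the later phases, in opposite directions.

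In the run of 21 peaks between Cd44, the hyaluronan receptor, and Pdhx on chromosome 2 (102956111 to 103019467), 9 rose and 1 fell. The leading rise, 81.1 kb from Cd44, had 3.55, 3.58, 3.54 and 3.42 in first-phase libraries, 6.20, 5.46, 6.51 and 6.01 in rest-phase libraries and 6.64, 7.30, 5.41 and 7.24 in second-phase libraries. The one fall, 57.5 kb from Cd44, had 6.87, 6.77, 6.13 and 6.90 in first-phase libraries, 1.58, 2.77, 4.04 and 3.21 in rest-phase libraries and 2.81, 4.67, 3.99 and 5.13 in second-phase libraries, a fold of -3.67 (SE 0.49, limma adjusted p = 4.55e-05). The run of 19 by Marcks, an actin-binding kinase substrate, on chromosome 10 had 3 higher and 4 lower, from -2.94 to 1.87.

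**Figure D5:**
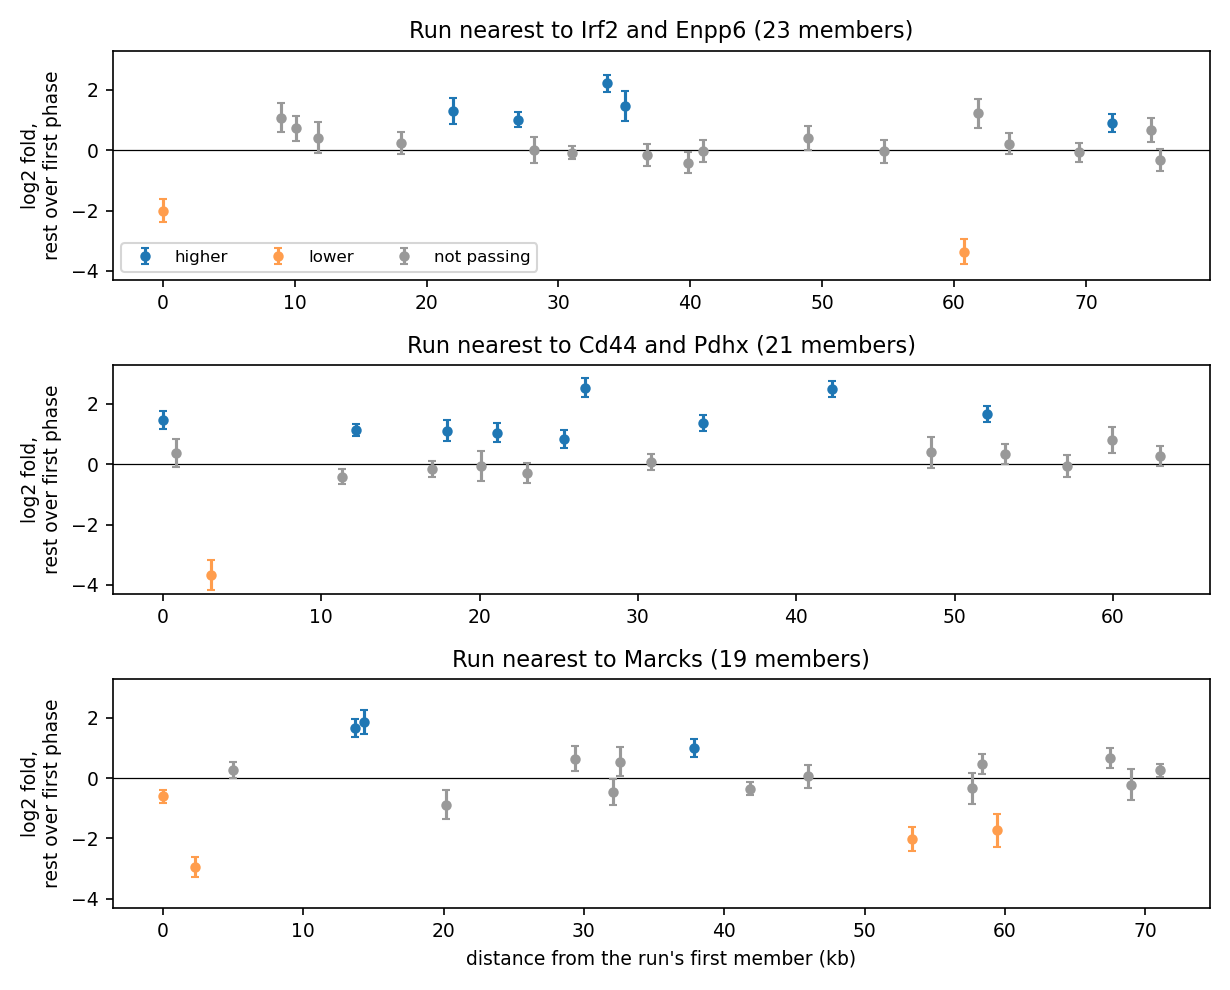
Rest against first log2 fold of each peak in the 3 largest runs, by distance from the first peak of the run (kb). Error bars are SE, and coloured points passed the threshold. Peaks called higher and lower stand side by side in each run, 5 and 2 in the run by Irf2, 9 and 1 in the run by Cd44, and 3 and 4 in the run by Marcks.

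The 8 most accessible far intergenic peaks had log2 levels between 8.12 and 10.34 in the 12 libraries. The peak holding the Gm40491 start had 8.84, 8.91, 8.84 and 9.08 in first-phase libraries, 9.98, 9.97, 9.74 and 9.68 in rest-phase libraries and 10.03, 9.74, 10.11 and 9.58 in second-phase libraries. Its rest against first fold of 0.95 (SE 0.13, limma adjusted p = 7.28e-05) depended on the scaling and was 0.27 with total reads (adjusted p = 0.271) and -0.12 with TMM. A peak 53.0 kb from 1110002J07Rik rose by 1.90 (SE 0.16, limma adjusted p = 1.26e-06) and kept its call under all 3 scalings. The peak 59.9 kb from Chaserr, a lncRNA that limits expression of Chd2, had 9.95, 9.96, 9.81 and 9.99 in first-phase libraries, 8.97, 9.19, 9.80 and 9.76 in rest-phase libraries and 9.09, 9.48, 8.89 and 8.99 in second-phase libraries; its fall of -0.50 (limma adjusted p = 0.0458) was lost when the first-phase A pair, first-phase B1 or B2, or rest-phase A1 or A2 was left out (adjusted p 0.0792 to 0.135).

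The farthest peaks were of low level. The one 2009.6 kb from Gm32455 had 2.20, 2.25, 2.92 and 3.21 in first-phase libraries, 5.43, 4.80, 5.34 and 4.67 in rest-phase libraries and 4.76, 5.17, 4.93 and 5.13 in second-phase libraries, a fold of 2.48 (SE 0.44, limma adjusted p = 0.00046). The other 3, near Slc10a2, Nudt12os and D3Ertd751e, did not pass.

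Whether diabetic history marks these sites is the comparison within each phase, for which the deposited calls of the authors are given. In the first phase the authors' deposited table called 0 far intergenic peaks at an adjusted p under 0.05, as it did over all peaks (0.0% higher in A and 0.0% higher in B). There 81 of 12590 far intergenic peaks had an unadjusted p under 0.05, beside 812 of all 139999 peaks. The limma fit called 0 under all 3 scalings. At an unadjusted p under 0.05 it had 481 to 649 of 12479 far intergenic peaks, beside 5214 to 6264 of all 139557. That fit kept both A libraries as 2; counted as 1, A would hold a single library, against 2 in B. In the rest phase the authors' deposited table called 4880 (38.8%) higher in A, against 39.7% of all peaks, and 20 (0.159%) higher in B, against 0.0929% of all peaks. In the second phase it called 2314 of 7440 (31.1%) higher in A, against 36.6% of all peaks, and 1 higher in B, against 0.00588% of all peaks. The other 5150 members are listed there at an adjusted p of 1 and stand outside the adjustment.

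The size of the one-sidedness in the rest phase differed between scalings, and under each more calls were higher in A than in B. The part of read depth in it was not tested. The authors' deposited table has a median log2 fold of A over B of 1.02 in far intergenic peaks and 1.04 in all peaks of the rest phase, and rest-phase A held 18617444 and 16002834 reads in peaks, against 5459236 and 8775958 in B. With quantile scaling, limma called 951 far intergenic peaks higher in A (7.62%, beside 6.48% of all peaks) and 488 higher in B (3.91%, beside 5.56%), with total-read scaling 1789 (14.3%, beside 13.1%) and 893 (7.16%, beside 8.29%), and with the authors' scaling 7112 (57.0%, beside 54.9%) and 92 (0.737%, beside 0.461%). With any 1 library left out, its group held 1 library and the fit 1 residual degree of freedom; limma then called 0, which says nothing of how stable the calls are. In the second phase limma called 0 under all 3 scalings. At an unadjusted p under 0.05 it had 119 to 443 of 12479 far intergenic peaks, beside 1076 to 5331 of all 139557.

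The rest-phase differences named here kept their call under all 3 scalings where limma could test them. The peak 112.9 kb from Mir21c had 8.41 and 7.29 in rest-phase A and 5.59 and 4.01 in rest-phase B, with 635 and 297 reads against 26 and 14; the limma log2 fold with quantile scaling was 3.00 (SE 0.49, limma adjusted p = 0.00673). One 85.2 kb from Cemip2, a hyaluronan-degrading enzyme, had 7.05 and 7.12 in A and 4.35 and 4.09 in B (2.93, SE 0.25, limma adjusted p = 0.000913). Its first-phase levels were 4.74 to 5.21 and its second-phase levels 6.63 to 7.13. Peaks near Htr1f, Slc41a2, 4921513I03Rik, Spry2, Ccdc71l and Fzd1 completed the 8 with the largest deposited fold, and all had A above B without overlap.

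Fewer peaks were higher in B. The peak 54.4 kb from Macc1 had 1.94 and 2.77 in rest-phase A and 5.86 and 5.46 in rest-phase B (3 and 8 reads against 30 and 38), a limma log2 fold of -3.57 (SE 0.47, limma adjusted p = 0.00321). A peak 95.9 kb from Scg2, a granin gene, had 2.89 and 2.70 in A and 6.16 and 5.94 in B (-3.46, SE 0.36, limma adjusted p = 0.00168). The others were near Icos, a T cell co-stimulator (198.8 kb), Grin3a (524.5 kb), Lef1 (55.8 kb), and Iars1, Adgrl2 and Veph1, the last 3 listed at 0 in A.

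In the second phase the leading deposited differences did not pass limma. The peak 54.3 kb from Apip had 5.55 and 4.76 in A and 3.45 and 3.65 in B, a limma log2 fold of 1.67 (SE 0.55) with an adjusted p of 1. A peak 70.8 kb from Kit had 6.58 and 4.93 in A and 4.50 and 4.61 in B. One 72.3 kb from Chd7, a chromatin remodeler gene, had 7.27 and 5.56 in A against 6.87 and 4.32 in B, with the groups overlapping. The other leading peaks lay near Map2k6, Zfp217, A230009B12Rik, Peli1 and 4930563J15Rik, and the 1 peak higher in B lay 184.7 kb from Tm2d1, with 2 and 1 reads in A and 16 and 5 in B.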

How the data were processed

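ATAC-seq reads of 12 libraries were processed by the authors, who deposited 1 table per phase over the same peaks. The submitters' processing notes list HOMER 5.1, DiffBind 3.14.0, DESeq2, the peak caller MACS2, bedtools 2.28.0, the aligner Bowtie2 2.5.4, deepTools 3.2.1 and Picard 3.2.0, with mm10 as the build; their roles are not stated. Each deposited table holds the log2 group means of normalized reads, a shrunken log2 fold, a p-value and an adjusted p-value, and the nearest start. The deposited fold was turned to A over B. From each group mean the whole reads of its 2 libraries were recovered, with 1 solution each (largest relative miss under 4e-09); the recovery and limma were tested on simulated data. Library 1 of a group is the one whose single read is worth less; label replicate numbers could not be matched to it.

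Phases were compared with limma 3.58.1 (R 4.3.3, empirical Bayes with trend) on log2(quantile-scaled reads + 1), with Benjamini-Hochberg adjustment over all peaks with recovered reads. Libraries of both groups were pooled in each phase, with no term for group. Second against rest and rest against first share the rest-phase libraries. Within phases the authors' deposited calls are given, beside limma with 3 scalings. Counting was done in Python 3.11.15. Peaks named are the 10 with the largest non-overlapping change in either direction among those at or above the median level of all peaks, the 8 with the largest deposited fold in either direction, the 8 most accessible, the 4 farthest, those at the limit, the smallest p of each gene list per comparison and the 3 largest runs; others are marked as chosen after their values were seen. Some results these rules select are not reported here. Members and the 14 gene lists were chosen with earlier results of these data known. Alternatives were other scalings and pseudocounts (0.5 and 5), a filter of 10 mean reads, an adjusted p under 0.01, a limit of 100 kb, the first-phase A pair as 2 libraries, each library left out and, chosen after seeing the data, a limit of 50 kb from every RefSeq start. Chromosomes without RefSeq windows in the tables used were left out of the RefSeq counts.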

Additional observations from a re-analysis of the deposited data

Results flagged for a closer look

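Among 106 sets of 4 libraries tested for a library far from its mates (the gap of the highest or lowest value to its neighbour over the whole range, set against Dixon's 95% critical value), 2 stood out, and chance flags about 1 in 20. In the rest phase, the peak 84.1 kb from A530013C23Rik (chromosome 2, start 167775240) had log2 levels of 9.16, 8.58, 9.09 and 9.17; A2 was far below the others, with a ratio of 0.871. In the second phase, the peak 50.4 kb from 1700073E17Rik (chromosome 6, start 145340644) had 8.99, 8.98, 9.34 and 9.0; B1 was far above the others, with a ratio of 0.948.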

How the results depend on the processing

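The counts of far intergenic peaks higher and lower in the rest phase than in the first stayed within 1.5 times of 3076 and 1580 under the other scalings, pseudocounts, read filter, stricter p and pair setting; leaving out 1 library at a time gave 2457 to 3261 and 1293 to 1672. The narrower limits moved them by construction: beyond 100 kb 1563 and 690, and beyond 50 kb of every RefSeq start 1790 and 714. The median fold of 0.29 was 0.14 with TMM, 0.51 with total reads and 0.23 with a pseudocount of 5. Beyond 100 kb the read shares were 1.48% in first-phase, 2.45% in rest-phase and 2.81% in second-phase libraries. Second against rest gave 0 calls in every setting. In the rest phase, 4880 higher in A and 20 higher in B became 951 and 488 (limma, quantile), 1789 and 893 (total reads), 92 higher in B with the authors' scaling, 2266 and 12 beyond 100 kb and 2273 and 2 at an adjusted p under 0.01. The 2314 and 1 of the second phase became 0 and 0 with limma and at an adjusted p under 0.01, and 967 higher in A beyond 100 kb. Within phases, limma without 1 library had 1 residual degree of freedom and gave 0 to 0 calls. With TMM, the peaks near Irf2bpl (-0.12), Gm19510 (-0.083) and A530013C23Rik (start 167753903, -0.97; -0.57 with total reads) turned direction. In the second phase Chd7 turned to -0.08 without A1 and -0.47 without B2, and 4930563J15Rik to -0.023 without B2; leaving out 1 library gave -0.47 to 2.31 and -0.023 to 2.14. Where not by construction, the cause was not tested. No paired analysis was possible because the recovered libraries carry no replicate number of the labels. Median far intergenic peaks of 6 to 38 reads limit which changes were detectable.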
